A study of Mus musculus with 2 samples.

Results

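Guanylate-binding proteins (Gbp proteins) are large GTPases of the dynamin superfamily that interferons induce in many mammalian cell types. They bind and hydrolyse guanine nucleotides, assemble on the membranes of vacuoles and bacteria inside the cell, and help to open those compartments to inflammasome sensors. In the mouse, one gene cluster of the family lies on chromosome 3 and the other on chromosome 5. Interferon gamma acts on such genes through gamma-activated sites (GAS) and through interferon regulatory factors (IRF) at interferon-stimulated response elements (ISRE).

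The family was taken by name, as the 10 symbols Gbp2 to Gbp11, and was chosen by its counts, since results of these same libraries were known when it was selected. The values below are therefore a description, and no test was made on them. Of the 10 symbols, 7 had a row of their own among the 43629 gene identifiers counted, and 3 did not. An eighth row, ENSMUSG00000040264, is named Gbp2b in GENCODE M21 and Gbp5 in the gene list of the study, in whose gene model it ran from the start of Gbp5 to the end of Gbp2b. It is called Gbp5/Gbp2b here, because its reads cannot be divided between both genes. Gbp7 and Gbp3 lie between the start of Gbp5 and the end of Gbp2b. Exon overlaps given below are those of GENCODE M21, and overlaps with the longer model were not examined. Gbp6 and Gbp10 had no row, and the row that shares part of their exons, Gm43302, is given as a value of that locus and not counted as a member. Of the 8 member rows, 7 had a mean of at least 10 counts, and Gbp11 did not.

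Dicer_KO mouse embryonic stem cells (mESCs) gave 2 libraries of polyA RNA, one from cells at passage 7 (replicate 1) and the other from cells at passage 4 (replicate 2). The cells have a 129/Ola background and were grown from the blastocyst-derived line E14TG2a, in which Dicer1, the RNase that cuts microRNA precursors, had been disrupted with paired CRISPR/Cas9 guides. The study made clonal lines with different deletions, and the labels do not say which line each library came from, so passage, line and library cannot be told apart. The paper states that its mESCs were routinely grown with serum and the cytokine LIF (leukemia inhibitory factor) unless otherwise specified. No interferon or other treatment beyond that culture is named for either library, and no wild-type library was analysed here. Since each passage has 1 library, a difference between the replicates has no replicate check and carries no p-value. In bulk RNA, fewer cells with a transcript and less transcript per cell cannot be told apart.

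The libraries held 41710122 counts (replicate 1) and 41566184 counts (replicate 2). At that depth, 3 counts correspond to 0.0719 and 0.0722 counts per 1000000 counts of the library (CPM). Dicer1 itself (ENSMUSG00000041415) had 1343 and 1510 counts, 34.3 ± 2.92 CPM (SD, n = 2), and a gene total does not show whether part of the gene is deleted. Pluripotency genes were abundant, with Pou5f1 at 39069 and 43025 counts, Nanog at 47522 and 26215, and Sox2 at 26499 and 21353.

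Promoters are shown first, because ISRE and GAS motifs are the elements through which interferons are known to act on this family. RefSeq windows (GRCm38.p6) from 250 bases before to 50 bases after the transcript start were available for Gbp2, Gbp3, Gbp5, Gbp7 and Gbp2b. All of these lie on chromosome 3. No window was available for Gbp4, Gbp6, Gbp8, Gbp9, Gbp10 or Gbp11, so the promoters of the chromosome 5 genes were not searched. They were searched on both strands for the ISRE core (GAAA, any 2 bases, GAAA) and the GAS core TTCNNNGAA, and an ISRE core on the opposite strand reads TTTC, any 2 bases, TTTC. Capitals mark the motifs in the stretches below, each read 5′ to 3′ on the plus strand, which is the strand of all of these genes. The Gbp5 stretch is chr3:142496684-142496898, the Gbp7 stretch chr3:142530222-142530300, the Gbp3 stretch chr3:142559991-142560022, the Gbp2b stretch chr3:142594702-142594727 and the Gbp2 stretch chr3:142620596-142620621.
Gbp5: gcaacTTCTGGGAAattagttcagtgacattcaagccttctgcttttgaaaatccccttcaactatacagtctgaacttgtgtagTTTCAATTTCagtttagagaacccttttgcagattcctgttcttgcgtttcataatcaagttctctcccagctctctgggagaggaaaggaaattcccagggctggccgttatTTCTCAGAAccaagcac
Gbp7: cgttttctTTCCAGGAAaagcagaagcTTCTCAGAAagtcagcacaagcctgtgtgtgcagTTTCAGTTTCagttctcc
Gbp3: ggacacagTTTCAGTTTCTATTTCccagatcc
Gbp2b: acttctaaTTTCACTTTCttctttat
Gbp2: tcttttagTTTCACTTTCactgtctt

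All 5 genes held an ISRE core upstream of the RefSeq start, and in each it lay on the strand opposite to the gene. The first base of the core lay 165 bases before the start in Gbp5, 137 in Gbp2b, 59 in Gbp2 and 53 in Gbp7. Gbp3 held a pair of overlapping cores, at 45 and 39 bases. Over all 32851 RefSeq promoter windows of the same length, 1131 (3.44%) held an ISRE core. The GAS core was found in 2 of the 5 genes, at 245 and 52 bases before the start in Gbp5 and at 106 and 87 bases in Gbp7, beside 2726 windows (8.3%) over all genes. These matches lay outside every GENCODE M21 exon of their gene, except the one in Gbp2. The GENCODE genes of Gbp2, Gbp3 and Gbp5 begin upstream of the RefSeq start used here. That of Gbp5 begins at chr3:142493978, so the Gbp5 matches lie inside the GENCODE gene, between exons. A second RefSeq window of Gbp3 held neither motif. A match shows that the letters are present and does not show binding, and a window without one says nothing about the factor.

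**Figure D1:**
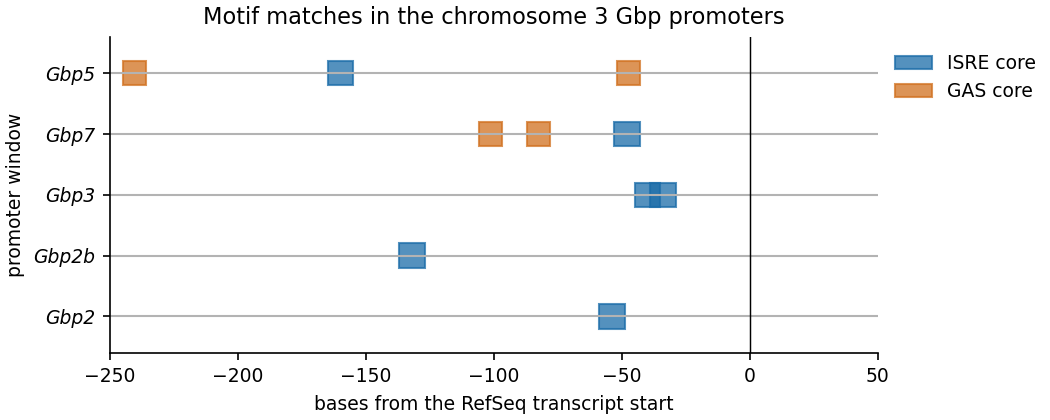
Positions of ISRE cores (blue) and GAS cores (orange) in the promoter windows of 5 Gbp genes on chromosome 3, with the distance from the RefSeq transcript start in bases on the x axis and 1 gene per line. Each gene has an ISRE core before the start, and only Gbp5 and Gbp7 also have GAS cores, 2 in each.

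Gbp7 and Gbp3 differed most between the libraries among the member rows. Gbp7 (ENSMUSG00000040253, chr3:142530342-142550149, plus strand, GRCm38) had 621 counts in replicate 1 and 124 in replicate 2. These are 14.9 CPM (95% Wilson interval 13.8 to 16.1) and 2.98 CPM (2.50 to 3.56), and intervals here and below cover counting error only, since reads without molecular identifiers are not independent molecules. After scaling by TMM (trimmed mean of M-values) and adding 1 count, replicate 1 was 4.57-fold higher, a log2 ratio of 2.19. The exact 95% interval, here and below taken without the added count, was 1.92 to 2.49. Gbp7 is a family member known for a part in restricting intracellular pathogens. Of its exonic bases, 11.3% are shared with Gm43802 on the same strand.

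Gbp3 (ENSMUSG00000028268, chr3:142560026-142573209, plus strand) had 285 and 73 counts, or 6.83 CPM (6.08 to 7.67) and 1.76 CPM (1.4 to 2.21). Its replicate 1 value was 3.55-fold higher, a log2 ratio of 1.83 (1.47 to 2.23). Gbp3 and Gbp7 are neighbours on the chromosome, and their intervals of the ratio overlap.

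Gbp2 (ENSMUSG00000028270, chr3:142620602-142638008, plus strand), which codes for a prenylated GTPase that gathers on pathogen vacuoles, had 643 and 329 counts. These are 15.4 CPM (14.3 to 16.7) and 7.92 CPM (7.10 to 8.82), a log2 ratio of 0.84 (0.65 to 1.04). The Gbp5/Gbp2b row (Gbp2b at chr3:142594847-142619179 and Gbp5 at chr3:142493978-142522344, both plus strand) had 735 and 387 counts. These are 17.6 CPM (16.4 to 18.9) and 9.31 CPM (8.43 to 10.3), a log2 ratio of 0.80 (0.62 to 0.98). Gbp5 is known for promoting inflammasome assembly, and Gbp2b is the gene that was long called Gbp1 in the mouse. All 4 rows of chromosome 3 were higher in replicate 1.

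The chromosome 5 rows did not share one direction. Gbp4 (ENSMUSG00000079363, chr5:105115767-105139586, minus strand) had 678 counts in replicate 1 and 981 in replicate 2, or 16.3 CPM (15.1 to 17.5) and 23.6 CPM (22.2 to 25.1). It was 1.57-fold higher in replicate 2, a log2 ratio of -0.65 (-0.80 to -0.51). Gbp4 had the most counts of any member row over both libraries.

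Gbp9 (ENSMUSG00000029298, chr5:105077630-105139539, minus strand) had 18.1 CPM (16.8 to 19.4) and 20.4 CPM (19.0 to 21.8), a log2 ratio of -0.29 (-0.43 to -0.14). The CPM intervals of Gbp9 overlapped between the libraries. Gbp8 (ENSMUSG00000034438, chr5:105014150-105139540, minus strand) had 55 and 29 counts, or 1.32 CPM (1.01 to 1.72) and 0.698 CPM (0.486 to 1.00), a log2 ratio of 0.78 (0.13 to 1.5). Gbp11 (ENSMUSG00000092021, chr5:105323042-105346472, minus strand), annotated as a polymorphic pseudogene, had 2 counts and 0 counts. Both values lie under the 3 counts taken as the floor, so no ratio is given for it.

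The row over Gbp6 (chr5:105270702-105293698) and Gbp10 (chr5:105215699-105239533), Gm43302 (ENSMUSG00000079362), had 101 and 16 counts. These are 2.42 CPM (1.99 to 2.94) and 0.385 CPM (0.237 to 0.625), a log2 ratio of 2.47 (1.77 to 3.40). Of its 4310 exonic bases, 81.6% are also exons of Gbp6 or Gbp10, so the reads cannot be given to one gene. Gbp6 and Gbp10 have 5954 and 3873 exonic bases, so the row covers only part of their exons.

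**Figure D2:**
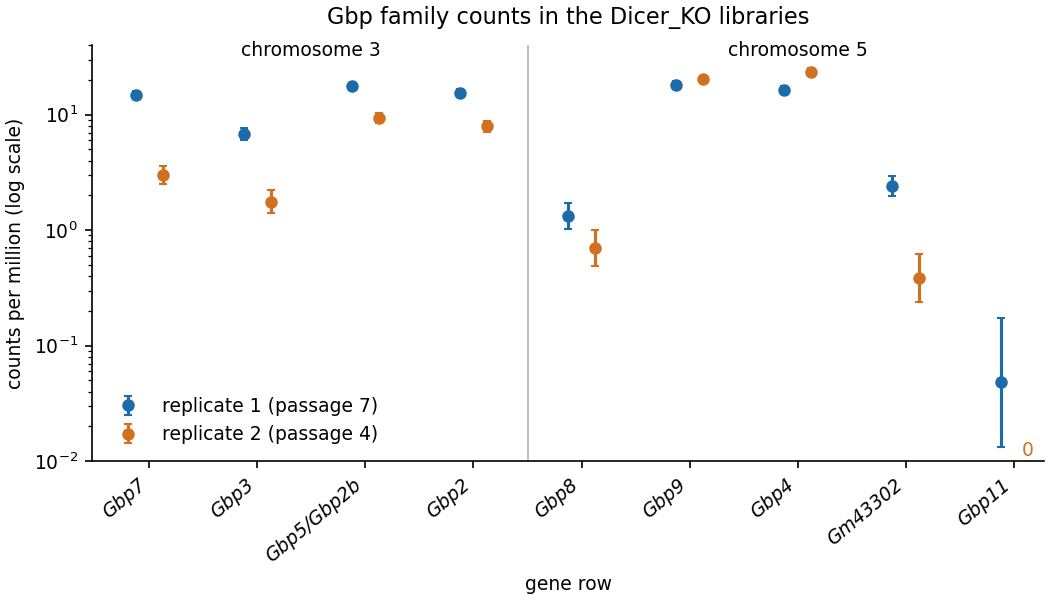
CPM (log scale) of each Gbp row in replicate 1 (blue) and replicate 2 (orange) of Dicer_KO mESCs, in order along chromosomes 3 and 5, with 95% Wilson intervals of counting error. The 4 rows of chromosome 3 are all higher in replicate 1, Gbp4 and Gbp9 are higher in replicate 2, and Gbp11 has 2 counts and 0 counts (printed as 0).

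Of the 7 member rows with a mean of at least 10 counts, 5 were higher in replicate 1, beside 51.3% of all 17788 genes with such a mean. Past 2-fold and higher in replicate 1 were 2 rows (Gbp3 and Gbp7), beside 2533 of all genes (14.2%). None of the 7 rows was past 2-fold and higher in replicate 2, beside 1270 of all genes (7.14%), and these shares are read only as background since the members were chosen with the counts known. Gbp2 at 1.79-fold and Gbp5/Gbp2b at 1.74-fold lay just below 2-fold, as did Gbp8 at 1.72-fold, and the intervals of Gbp2 and Gbp8 reached past 2-fold. Gbp3 at 3.55-fold was the nearest row above it. The median log2 ratio of the 7 rows was 0.80, and that of all genes was 0.02 (quartiles -0.38 and 0.54).

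Summed over its 4 rows, the chromosome 3 cluster had 2284 counts in replicate 1 and 913 in replicate 2, or 54.8 and 22.0 CPM. The chromosome 5 rows had 1489 and 1856 counts, or 35.7 and 44.7 CPM. The log2 ratio was 1.20 (1.09 to 1.31) on chromosome 3 and -0.44 (-0.54 to -0.34) on chromosome 5. Chromosome 3 thus gave 60.5% of the counts of the family in replicate 1 and 33.0% in replicate 2. The chromosome 5 sum follows Gbp4 and Gbp9, and it holds neither Gbp6 nor Gbp10. In all, the member rows took 0.00905% and 0.00666% of the counts of the libraries.

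Genes around the clusters were set next to these values, taking on each side the nearest 5 genes whose counts averaged 10 or more. These genes were not all close by. Tspan5 lay 3586 kilobases from the chromosome 3 cluster, Rap1gds1 3419, Lmo4 1519 and Pdha2 1282. The farthest gene taken on chromosome 5, Gm10359, lay 516 kilobases from its cluster. On chromosome 3 the median log2 ratio of the 10 neighbours was -0.28, and the highest was at 0.07, below all 4 Gbp rows. The nearest of them, Kyat3, had 1071 and 2511 counts, a log2 ratio of -1.35, and Gtf2b, a general transcription factor gene, had 2764 and 2446 counts, a log2 ratio of 0.05. On chromosome 5 the neighbours ranged from -1.99 (Zfp951, 851 and 3114 counts) to 1.43 (Lrrc8b, 266 and 90 counts), with a median of -0.04. Gbp4, Gbp9 and Gbp8 lay within that range.

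**Figure D3:**
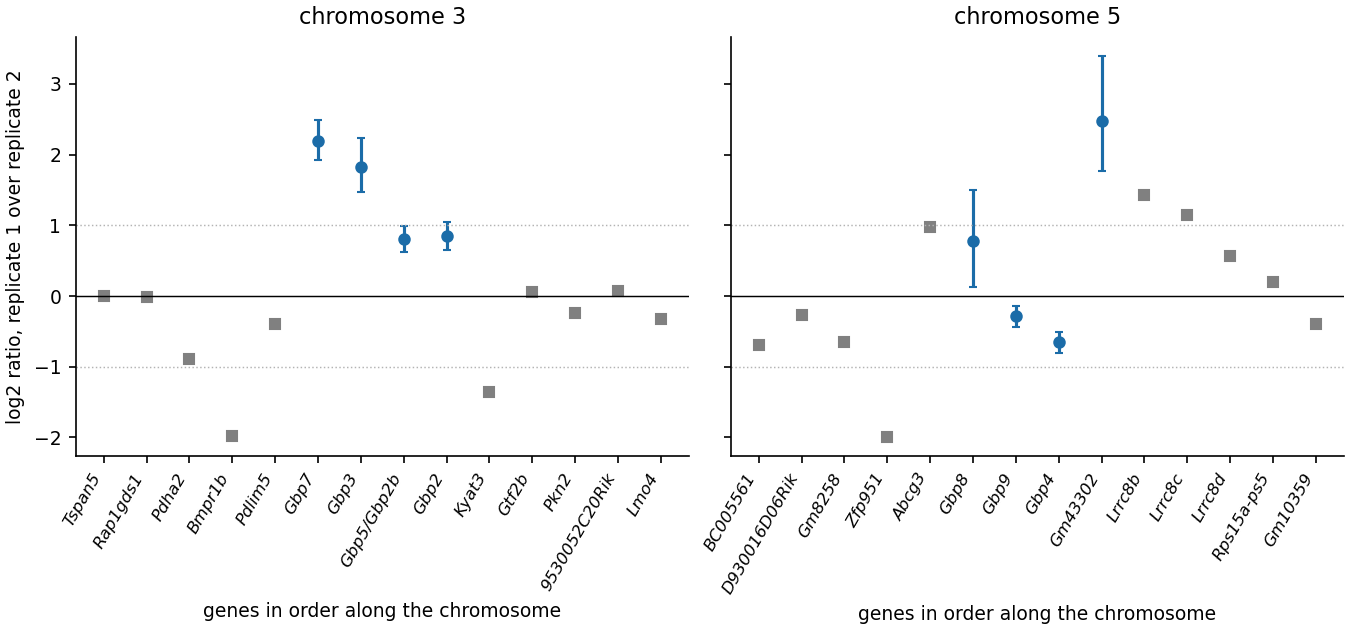
Log2 ratio of replicate 1 over replicate 2 for the Gbp rows (blue circles, with exact 95% intervals of counting error) and for the 5 nearest counted genes on each side (grey squares), in order along each chromosome and not to scale. Dotted lines mark 2-fold; the chromosome 3 Gbp rows lie between 0.80 and 2.19 and their neighbours between -1.98 and 0.07, while on chromosome 5 Gbp rows, including the Gm43302 row of the Gbp6 and Gbp10 locus, lie on both sides of 0.

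Per length, the family was expressed at low to moderate levels. In RPKM, which is CPM divided by the exonic length in kilobases, the mean of both libraries was 4.64 ± 2.11 for Gbp2, 3.71 ± 0.311 for Gbp9 and 2.66 ± 0.693 for Gbp4 (SD, n = 2 each). It was 1.59 ± 1.5 for Gbp7, 1.42 ± 0.621 for Gbp5/Gbp2b, 1.32 ± 1.10 for Gbp3 and 0.293 ± 0.128 for Gbp8. The median RPKM of the 14685 protein-coding genes tested was 5.08, and Gbp2 stood at the 47.9th percentile of them and Gbp8 at the 11.8th. In that order the values of the libraries overlapped between Gbp2 and Gbp9, between Gbp4 and Gbp7, and among Gbp7, Gbp5/Gbp2b and Gbp3. Both values of Gbp9 lay above both of Gbp4, and both values of Gbp3 lay above both of Gbp8.

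The order of the RPKM values differed between the libraries. In replicate 1 Gbp2 was the highest row at 6.13 RPKM, followed by Gbp9 at 3.49 and Gbp7 at 2.65. In replicate 2 Gbp9 was the highest at 3.93, Gbp2 and Gbp4 both stood at 3.15, and Gbp7 was at 0.531. The value of the Gbp5/Gbp2b row depends on the gene it is given to, with 1.42 RPKM over the exons of both genes, 4.77 over those of Gbp2b alone and 2.03 over those of Gbp5 alone. With the longest transcript as the length, the value of Gbp4 was 4.39 RPKM in place of 2.66 and stood next to Gbp2.

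By the rule for genes of like pattern, the protein-coding genes nearest to Gbp4, the most counted row, in log2 CPM of both libraries were Siah1b (694 and 969 counts), Gm13128 (670 and 956) and Slc25a38 (698 and 971). With 2 libraries this measure says little, since 21 protein-coding genes lay within 0.1 log2 units of Gbp4.

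How far reads can be told apart within the family was described from the transcripts of GENCODE M21. The coding sequences of the chromosome 5 genes were between 90.2% and 98.4% identical over aligned bases (15 pairs, median 91.7%), with Gbp6 and Gbp10 the most alike. Those of chromosome 3 were between 63.8% and 82.5% identical (10 pairs, median 65.4%), with Gbp2 and Gbp2b at 82.5% and Gbp3 and Gbp7 at 78.3%. The 30 pairs with 1 gene on each chromosome had a median of 66.3%.

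**Figure D4:**
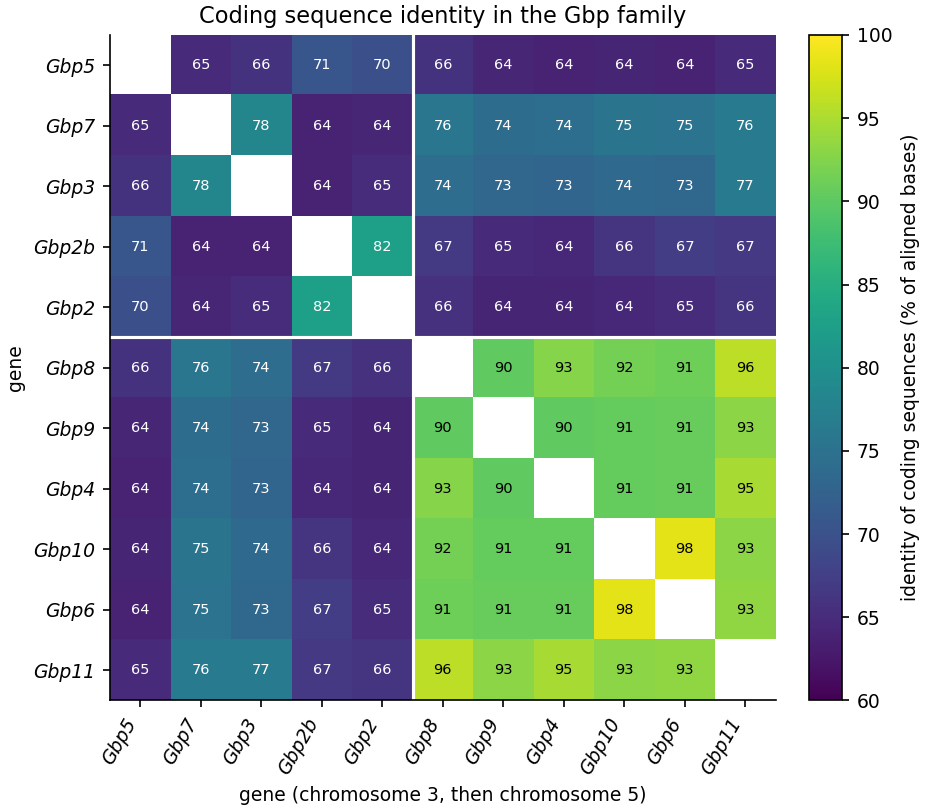
Identity of coding sequences in percent of aligned bases for each pair of 11 Gbp genes, ordered along chromosome 3 and then chromosome 5, with white lines between the chromosomes. Pairs on chromosome 5 range from 90.2% to 98.4%, and pairs on chromosome 3 from 63.8% to 82.5%.

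Stretches of 50 bases that also occur in the transcripts of another gene made up 84.1% of all such stretches in Gbp10, 70.7% in Gbp6 and 100% in Gm43302. The share was 19.2% in Gbp11, 18.1% in Gbp8, 8.05% in Gbp9 and 7.78% in Gbp4. On chromosome 3 it was 12.7% in Gbp7 and between 1.44% and 3.75% in Gbp2, Gbp3, Gbp5 and Gbp2b. With stretches of 100 bases the shares were lower, at 98.8% in Gm43302, 73.5% in Gbp10, 64.5% in Gbp6 and 10% in Gbp7. They were 5.13% in Gbp11, 4.39% in Gbp8, 1.65% in Gbp9 and 1.64% in Gbp4. Gbp3 had 0.694%, Gbp5 had 0.142%, and Gbp2 and Gbp2b had 0%. The reference is the C57BL/6J genome and the cells are 129/Ola, and the part of strain differences in these counts was not tested.

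Other immunity-related GTPases (IRG proteins) act on the same vacuoles as Gbp proteins. Of the 9 IRG genes listed, 7 averaged 10 or more counts. Of these, 2 were past 2-fold and higher in replicate 1 (14.2% of all genes). None was past 2-fold and higher in replicate 2 (7.14% of all genes). Their median log2 ratio was 0.39. Irgm1, a regulator of the other IRG proteins, had 855 and 918 counts (log2 ratio -0.22), and Irgm2 had 417 and 456 (-0.25). Igtp had 525 and 368 counts (0.39), and both of the rows past 2-fold were low, Irgc1 at 59 and 5 counts and Ifi47 at 22 and 3. Irgm1 and Irgm2 thus stood nearer to Gbp9 than to the chromosome 3 Gbp rows. The other 5 of the 7 were higher in replicate 1 (51.3% of all genes), with Tgtp1 at 206 and 139 counts (0.44) and Irgq at 796 and 652 (0.17). Exons of Irgm2 and Igtp overlap on the same strand. An ISRE core was found in the promoter windows of 5 of 7 IRG genes (Igtp, Irgm1, Irgm2, Tgtp1 and Tgtp2), beside 3.44% of all windows.

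Among the other GTPases listed, and Rnf213 beside them, Mx2 had 36 and 7 counts (log2 ratio 2.10) and Mx1 had 9 and 0. Atl3, a dynamin-superfamily relative that shapes the endoplasmic reticulum, had 8387 and 9505 counts (-0.30), and Rnf213, a large AAA+ ATPase and ubiquitin ligase, had 18699 and 19719 (-0.20). The median of the 3 tested (Mx2, Atl3 and Rnf213) was -0.20, which is the value of Rnf213. Atl3 was listed as a relative and not as an interferon-induced gene, so this median does not describe interferon-induced GTPases.

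Ligands of the pathway were close to absent from the counts. Ifna4, Ifnl3 and Il12a had 0 counts in both libraries, Ifng had 1 and 2, Ifnb1 had 1 and 0, and Ifnl2 had 4 and 0. With 3 counts as the limit that a count of 0 allows, this is up to 0.0719 CPM in replicate 1 and 0.0722 CPM in replicate 2, and the 95% Wilson interval of 0 counts in replicate 2 reaches 0.0924 CPM. Interferons made outside these cells are not measured by the libraries.

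The genes of receptors and factors that act on Gbp promoters were counted next. Of these 12 genes, 10 were higher in replicate 1 (51.3% of all genes), 3 were past 2-fold and higher in replicate 1 (14.2% of all genes), and none was past 2-fold and higher in replicate 2 (7.14% of all genes). Their median log2 ratio was 0.68. Irf1, an activator of ISRE promoters, had 4724 and 2282 counts, a log2 ratio of 0.93 (0.86 to 1.00).

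Stat2, which joins with IRF9 in the type I interferon complex, had 2484 and 1222 counts (log2 ratio 0.90), while Irf9 had 2944 and 2482 (0.12). Irf2, an ISRE-binding factor often described as opposing IRF1, had 1181 and 491 counts (1.14). The largest ratio was that of Irf7, an amplifier of type I interferon, at 148 and 4 counts (4.80, interval 3.70 to 6.98), and Irf8 had 64 and 7 counts (2.91). Of the receptor chains, Ifngr1 had 530 and 303 counts (0.68) and Ifngr2 had 1075 and 818 (0.27). The log2 ratios of Irf1 and Stat2 were close to those of Gbp2 and Gbp5/Gbp2b, and below those of Gbp3 and Gbp7. Jak2 (0.64) and the feedback inhibitor Socs1 (0.67) were higher in replicate 1, while Jak1 (-0.08) and the phosphatase gene Ptpn2 (-0.09) were slightly lower there.

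Genes for the steps that place Gbp proteins on membranes were counted beside a share of 21.4% of all genes past 2-fold in either direction. Of 10 genes of ATG8 conjugation, through which Gbp proteins reach pathogen vacuoles, none was past 2-fold, the log2 ratios ran from -0.39 (Atg16l1) to 0.41 (Map1lc3b), and the median was 0.11. Of 6 genes for prenylation of CaaX ends, which anchors several Gbp proteins, none was past 2-fold. None of the 6 was higher in replicate 1, beside 51.3% of all genes, and their median was -0.28. Pggt1b, a subunit of a prenyltransferase, was at -0.62, and Fnta, the shared alpha subunit, at -0.51. Both were lower in replicate 1, as Gbp4 was, while the chromosome 3 Gbp rows were higher there.

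Of 8 inflammasome genes that act downstream of Gbp proteins, 5 were tested, with a median log2 ratio of 0.41. Of these, 2 were past 2-fold and higher in replicate 1 (14.2% of all genes). Gsdmd, the pore-forming gasdermin, had 2297 and 383 counts (log2 ratio 2.46). Il18 had 16 and 4 counts. Aim2, a DNA sensor, was well counted at 4224 and 3104 (0.32), and the adaptor Pycard had 664 and 458 (0.41). Casp1 and Il1b had 0 counts in both libraries and Casp4 had 2 and 0, so the caspases of these inflammasomes were not detectable beyond the floor at this depth.

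**Figure D5:**
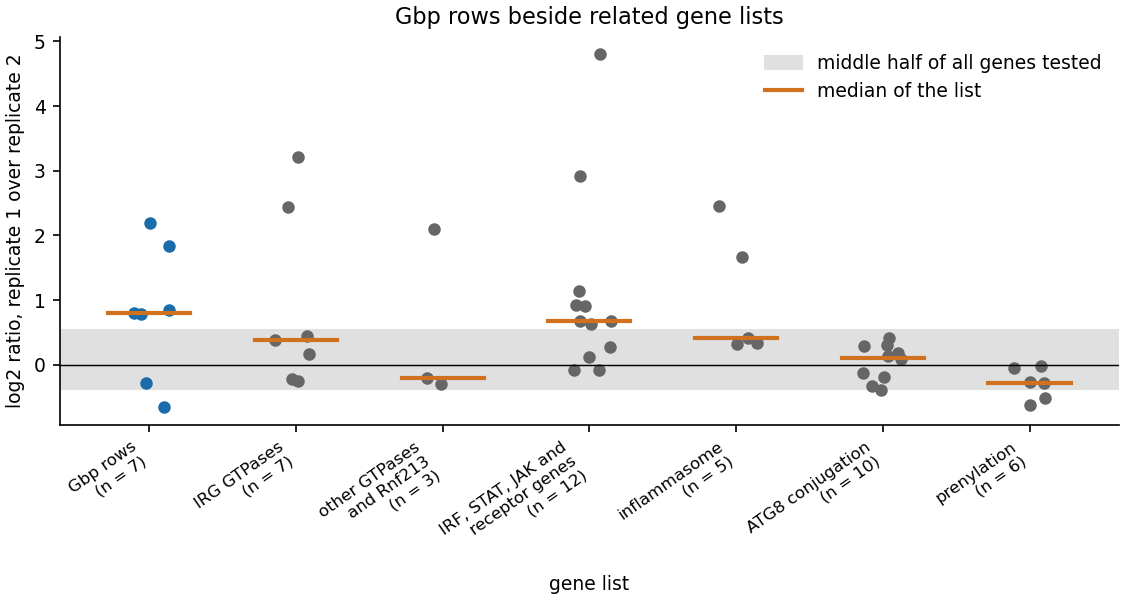
Log2 ratio of replicate 1 over replicate 2 for each gene averaging 10 or more counts in the Gbp rows (blue) and in 6 related gene lists (grey), with list medians in orange and the range between the quartiles of all 17788 genes shaded. The median is 0.80 in the Gbp rows, 0.68 in the IRF, STAT, JAK and receptor genes, 0.39 in the IRG genes, 0.41 in the inflammasome genes, 0.11 in the conjugation genes, -0.28 in the prenylation genes and -0.20 in the list of other GTPases with Rnf213.

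Markers of other cell types moved with the chromosome 3 Gbp rows in part. All 5 of the trophectoderm markers tested, of 6 listed, were past 2-fold and higher in replicate 1 (14.2% of all genes). The list summed to 375 CPM in replicate 1 and 58.4 CPM in replicate 2, mostly from Krt8 (8004 and 1370 counts) and Krt18 (7162 and 880). Primitive endoderm markers summed to 16.3 and 8.54 CPM, with 2 of 4 tested past 2-fold and higher in replicate 1, beside the same 14.2%. Their part in the Gbp values was not tested.

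Macrophages and leukocytes express Gbp genes strongly, so their markers are given too. Of 10 markers, Adgre1, Lyz2 and Tyrobp had 0 counts in both libraries and Ptprc had 5 and 4. The list summed to 37.2 and 35.2 CPM, most of it Cd68 (1301 and 1409 counts). Past 2-fold and higher in replicate 1 (14.2% of all genes) were 3 of the 4 tested. These were Csf1r (95 and 1), Spi1 (82 and 31) and Fcgr3 (46 and 4). Feeder fibroblast markers summed to 1680 and 1376 CPM, nearly all from Fn1, with Col1a1 at 20 and 18 counts and Postn at 0. Of the 4 tested, 1 was past 2-fold and higher in replicate 1 (14.2% of all genes). Endothelial markers summed to 310 and 274 CPM, nearly all from Pecam1 (12422 and 10636 counts), with Cdh5 at 15 and 14 counts and Emcn at 0. Of the 4 tested, 1 was past 2-fold and higher in replicate 2 (7.14% of all genes).

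Since Dicer1 is needed for mature microRNAs, the seeds of microRNAs that are abundant in mESCs, or that the study measured, were also searched for in the Gbp transcripts. RefSeq mature sequences (GRCm38.p6) are shown 5′ to 3′ with the seed, bases 2 to 8, in capitals, and the last 3 share one seed.
miR-16-5p: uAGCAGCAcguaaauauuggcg
miR-291a-3p: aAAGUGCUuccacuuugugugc
miR-294-3p: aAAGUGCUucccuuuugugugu
miR-295-3p: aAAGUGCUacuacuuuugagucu

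The complement of the shared seed, AGCACTT, was absent after the stop codon of the longest coding transcript of every Gbp gene with such bases, Gbp2b included, while Gbp11 has none in its annotated transcript. It was present in 2710 of 21894 genes (12.4%). Among genes with a 3′ UTR of like length, the share ran from 4.57% for Gbp2 and Gbp3 to 34.4% for Gbp7. The complement of the miR-16 seed, TGCTGCT, was found once, in the 974 bases after the stop codon of Gbp2b (chr3:142619067-142619093, plus strand, 3′ UTR, site in capitals), and in no other Gbp gene.
Gbp2b site: atctttctttTGCTGCTatgacatgat

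Over all genes, 17.3% held the miR-16 match, and of the 2535 genes with a 3′ UTR of like length 16.1% did. The longest Gbp stretches searched were those of Gbp7 (3575 bases), Gbp4 (2511) and Gbp9 (2425). A seed match is a string of letters and not a measured site, and microRNAs were not measured in these libraries.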

How the data were processed

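PolyA RNA of Dicer_KO mESCs was sequenced in 2 libraries. Trimmed reads were aligned by the authors with STAR (2.4.2a) to mm10 (GRCm38), keeping reads with several hits. Ensembl genes were counted with featureCounts (1.4.5-p1), without reads that fell where genes overlap. What was deposited are raw counts for each gene. The labels give a reverse-stranded protocol. How reads with several alignments were counted and which strand setting was used are not given in the sources used here.

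Replicate 2 was scaled to replicate 1 by TMM (edgeR 4.0.16, R 4.3.3; scaling only, no test). Log2 ratios used a pseudocount of 1, over genes averaging 10 or more counts. Their exact 95% binomial intervals are of the scaled ratio without the pseudocount. DESeq2 (1.42.0) size factors, total counts, a pseudocount of 0.1, other filters, folds and lengths, and leaving out each library were the alternatives. Positions and lengths came from GENCODE M21, which lacks 1167 of the listed identifiers and holds 42462. Steps were tested on simulated data. Lengths without bases shared on the same strand were tried as well.

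The members and lists were chosen with earlier results of these data known. All members, Gbp2b, Dicer1, the 5 nearest counted genes on each side and the listed genes could be named, with the 3 genes nearest to the most counted member; 1 listed gene is not reported here. The microRNA search, and the lengths of Gbp5 or Gbp2b alone, were added after seeing the data. P-values were not computed, since both libraries are of 1 group.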

Additional observations from a re-analysis of the deposited data

How the results depend on the processing

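No paired analysis was possible because the 2 libraries are of a single condition. Of 55 values recomputed under alternatives other than leaving out a library, 46 stayed within a set limit and 9 moved further. The limit was the counting interval for log2 ratios of member rows, and the SD between libraries for RPKM and summed CPM. For counts of genes it was a set fold, and for the median log2 ratio a set difference. No log2 ratio of a member row changed sign. Some RPKM values could not move, since the alternative length was the same. Genes past 2-fold, 3803 of 17788, became 7938 of 43629 without a filter on low counts, 2324 of 14314 at a mean of at least 50 counts, and 1016 at 4-fold. The split of higher in replicate 1 against higher in replicate 2 went from 2533 and 1270 to 4050 and 3888 without the filter. The 2 member rows past 2-fold became 1 at 4-fold (Gbp7) and 3 without the filter, where Gbp11 joined them on 2 and 0 counts. Scaling by total counts moved the median log2 ratio of all genes from 0.02 to 0.14 and kept 2 member rows past 2-fold. The chromosome 5 sum was 0.0240 CPM without members whose exons overlap another gene, since only Gbp11 is then left. With the longest transcript as the length, the median RPKM of the 7 rows moved from 1.59 to 3.59. With 1 library left out, the median CPM of the member rows ranged from 5.45 to 15.2, the chromosome 3 sum from 22.0 to 54.8 CPM, the chromosome 5 sum from 35.7 to 44.7 CPM, and Dicer1 from 32.2 to 36.3 CPM. These are the values of single libraries and show nothing about stability. Depth limits Gbp11 and the ligands, which lie near the floor of 3 counts.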
